A study of Mus musculus with 4 samples.

Results

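The 9 genes Sst, Cort, Npy, Vip, Tac2, Crh, Tac1, Cck and Adcyap1 encode precursors of neuropeptides found in the cerebral cortex, and they were followed here across the cells of the mouse ventromedial prefrontal cortex (vmPFC). They were chosen by name, as 9 of the 31053 genes in the count matrices, and their counts were summed for each library over the 7 excitatory subtypes that the authors assigned in the deposited metadata, over inhibitory cells, and over the remaining cells. A cell was called inhibitory when it was absent from that metadata, held at least 4 unique molecular identifiers (UMIs, each standing for 1 captured RNA molecule) of Gad1 and Gad2 together, and held at most 3 of Slc17a7. Male C57BL/6 mice aged 8 weeks had received 5 barcoded EGFP viruses (rAAV2-retro, taken up by axon terminals and driven by a short CAG promoter), each placed unilaterally into a different target: the lateral hypothalamus (LH), the basolateral part of the amygdala (BLA), the thalamic mediodorsal nucleus (MD), the striatum in its dorsomedial part (DMS) and the agranular insular cortex (AI). The prelimbic and infralimbic areas were then dissected for droplet single-cell RNA sequencing. There were 3 unsorted libraries of 1 mouse each, here unsorted 1, 2 and 3. A further library pooled cells of 3 other mice after sorting by flow cytometry (FAC-sorted). Every mouse carried the viruses, so no uninjected group was compared, and the sorted library is a sample of 1 with no replicate of its own.

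Neuropeptides are cut from precursor proteins inside dense-core vesicles and act on receptors, mostly G-protein-coupled, often at a distance from the release site. In the cortex they are best known as labels of inhibitory interneurons, which fall into lineages by origin: cells from the medial ganglionic eminence express the transcription factor Lhx6 and include the Sst and Pvalb classes, whereas cells from the caudal ganglionic eminence typically express Adarb2 and include the Vip class. Excitatory neurons also use peptides, Cck and Adcyap1 among them. Because interneuron peptide RNAs are very abundant, RNA released from broken cells enters every droplet, and a few UMIs of Sst or Vip in a cell do not by themselves show that the cell made them.

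No other annotated gene overlapped any of the 9 genes in the GRCm38.p6 models (the mm10 assembly). Sst spanned chr16:23889573-23890958 and Adcyap1 chr17:93199017-93206537. Peptide genes are textbook targets of cyclic AMP signalling through the transcription factor CREB, whose full element is the palindrome TGACGTCA with the core TGACGT. The promoters in the RefSeq table for GRCm38.p6, which cover 250 bases before to 50 bases after each start, were therefore searched on both strands, and 8 of the 9 genes had an entry. Positions are counted from the RefSeq start, which can differ from that of the gene models. The Sst stretch below lies inside the span given above for Sst. The full element was present in 588 of 32851 promoters (1.79%) and the core, which includes the full element, in 2468 (7.51%). Among the members, Sst carried the full element, Vip and Adcyap1 carried the core, and no match was found in the windows of Cort, Npy, Tac2, Tac1 and Cck. The 3 matching stretches are shown because they include the Lhx6-lineage peptide Sst, the Adarb2-lineage peptide Vip and the excitatory peptide Adcyap1, with the matched letters in capitals and each sequence written in the direction of its gene.
Sst, chr16:23890874-23890903, minus strand, match 48 bases before the start: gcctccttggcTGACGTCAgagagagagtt
Vip, chr10:5639127-5639156, plus strand, match 79 bases before the start: ggatcactactgTGACGTctttcggggagc
Adcyap1, chr17:93198914-93198943, plus strand, match 91 bases before the start: ggactaggatgcTGACGTcttttactgata
A match describes the letters of the window and was not compared with any measurement of binding.

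The matrices held 54749198 to 87841541 UMIs per library and 1791 to 7012 cells within the limits of the study's methods. Libraries shared 5 to 30 cell barcodes pairwise. Although the samples are labelled as retrograde labeled vmPFC neurons, the unsorted libraries were mixtures: they held 7765 excitatory neurons of the metadata, 1278 inhibitory cells and 10429 other cells, of which 7826 could be assigned to 1 of 6 non-neuronal classes by marker UMIs. The sorted library held 1603 excitatory neurons but 5 inhibitory cells, so inhibitory results rest on the 3 mice of the unsorted libraries. Levels are given as CPM, the share of the UMIs of the summed cells in units of 1 per 1000000, a scale that compares groups for 1 gene. In inhibitory cells Gad1 stood at 1006 to 1088 CPM, the vesicular GABA transporter Slc32a1 at 343 to 370 and the glutamate transporter Slc17a7 at 9.73 to 13.8. In excitatory neurons Slc17a7 stood at 1019 to 1043 CPM and Gad1 at 1.86 to 2.12. Near the limits for inhibitory cells, 43 of the 1278 held 4 or 5 Gad UMIs, and 30 further cells held 3.

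Sst and Vip were the most abundant member RNAs of inhibitory cells. Sst, which encodes the inhibitory peptide somatostatin, was at 3845, 3499 and 4525 CPM in unsorted 1, 2 and 3 (3956 ± 522, SD, n = 3). Vip, encoding vasoactive intestinal peptide, was at 2751, 3415 and 3341 CPM. Cck, encoding cholecystokinin, was at 2496, 2851 and 2889 CPM. The inhibitory ranges of Vip and Cck overlapped, and those of both lay below the range of Sst.

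Npy, encoding neuropeptide Y, followed at 1365, 1523 and 1785 CPM. Tac2, which encodes neurokinin B, was at 511, 568 and 598 CPM. Cort, whose product cortistatin resembles somatostatin and acts on its receptors, was at 317, 211 and 326 CPM. Crh, encoding corticotropin-releasing hormone, was at 161, 153 and 170 CPM. These 4 genes stood in that order in every unsorted library. Tac1, the substance P precursor gene, was at 48.3, 80.9 and 44.6 CPM, below Crh in each library. Adcyap1, encoding PACAP, had 5 UMIs in all 1278 inhibitory cells. As counts per cell, inhibitory cells held a mean of 58.4 ± 9.73 Sst UMIs, 46.7 ± 6.24 Vip UMIs, 40.5 ± 4.22 Cck UMIs and 23.0 ± 3.94 Npy UMIs (SD, n = 3 libraries).

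**Figure D1:**
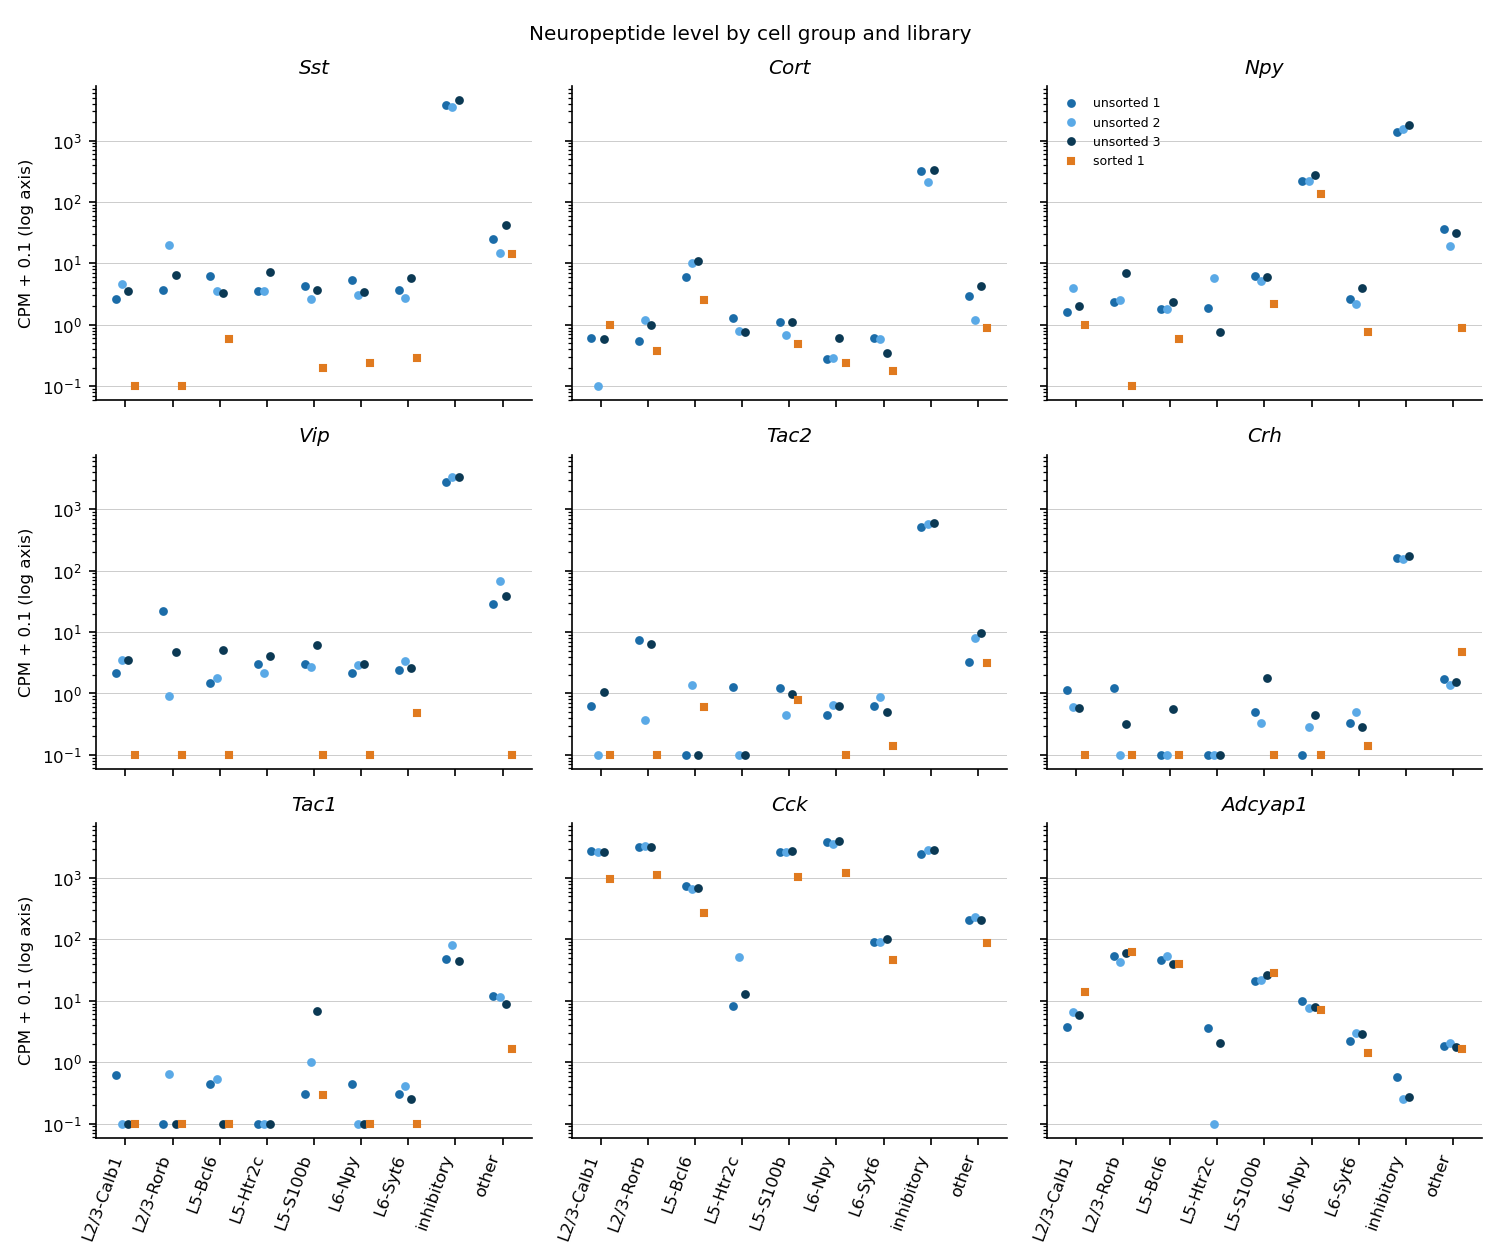
Level of each of the 9 peptide genes by cell group, as CPM plus 0.1 on a log axis, with 1 point per library. Circles are the 3 unsorted libraries and orange squares the sorted library, whose points are left out for L5-Htr2c and inhibitory cells because it held 4 and 5 such cells. Sst is highest in inhibitory cells (3499 to 4525 CPM), whereas Cck is also high in 4 excitatory subtypes and Adcyap1 is near 0 in inhibitory cells.

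The comparison that parted the peptides was that of inhibitory with excitatory neurons in the same 3 libraries. All 9 members passed edgeR's quasi-likelihood test with Benjamini-Hochberg adjustment at an absolute log2 difference of at least 0.5. Of them, 8 were higher and 1 was lower in inhibitory cells, while 20.6% of the 15266 genes tested were called higher and 19.7% lower. The authors clustered the excitatory neurons on variable genes of these same counts and named 1 subtype for Npy, so the excitatory side is not taken as independent of the peptides. Log2 differences were 9.75 ± 0.04 (SE) for Sst, 9.76 ± 0.05 for Vip, 9.18 ± 0.05 for Tac2, 8.72 ± 0.08 for Crh, 8.26 ± 0.07 for Cort, 6.55 ± 0.19 for Tac1 and 5.79 ± 0.03 for Npy. Cck was higher by 1.09 ± 0.03, and its excitatory level was itself 1203, 1138 and 1252 CPM. Adcyap1 was the member that was lower, by a log2 difference of -5.56 ± 0.28 (largest adjusted p of the 9 by edgeR's quasi-likelihood test 4.58e-21).

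Against all other cells, 8 members were again higher and Adcyap1 lower, with 29.1% of 15096 genes called higher and 36.5% lower (largest adjusted p 0.000101 in edgeR's quasi-likelihood test). The log2 differences ran from 2.37 ± 0.11 for Tac1 to 7.15 ± 0.12 for Sst, and Adcyap1 was at -2.75 ± 0.51. Both comparisons use the same inhibitory cells. The other cells still held 381 cells of no class with at least 4 Slc17a7 UMIs and under 4 Gad UMIs. Per cell, Adcyap1 was at 0.0342 UMIs in other cells of no class, 0.00391 in inhibitory cells and 0.000894 (7 UMIs) in non-neuronal classes. Tac1 was the member for which the 2 comparisons differed most in size. Non-neuronal cells held 19.8% to 25.3% of its UMIs per unsorted library. Inhibitory cells held 54.4% to 70.3% of Tac1 UMIs, but 93.9% to 98.0% of those of Sst, Cort, Vip, Tac2 and Crh and 80.6% to 85.7% of those of Npy. For Cck the excitatory neurons held 73.8% to 78.8%, and for Adcyap1 94.5% to 96.1%.

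Cells of non-neuronal classes were taken as a guide to the level that free RNA leaves, which was not measured directly. Sst had a mean of 0.0262 UMIs per non-neuronal cell and 6.42 ± 0.44 CPM. In excitatory neurons, which were deeper (median 21344 to 23213 UMIs against 3882 to 4116), Sst had 0.0966 UMIs per cell, 3.69 times the non-neuronal mean, but 3.91, 3.87 and 5.06 CPM, below the non-neuronal mean on that scale. In the sorted library, which held almost no inhibitory cells, Sst in excitatory neurons was at 0.156 CPM, 27.5 times lower than the unsorted mean. Vip was likewise at 3.81, 2.91 and 3.42 CPM in excitatory neurons of the unsorted libraries and at 0.195 CPM in the sorted one. Adcyap1 was not lower, at 11.9, 11.0 and 12.8 CPM unsorted and 13.8 CPM sorted. Sst and Vip in excitatory neurons were thus lower in the sorted library, and Adcyap1 was not. Cck was lower there as well, at 520 CPM in excitatory neurons against an unsorted mean of 1197. Npy was at 19.6 CPM against 26.3. The part of free RNA in these differences was not tested, since the sort, the mice and the library cannot be told apart.

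Some traces came from a few cells. In L2/3-Rorb neurons, 7 of 564 cells held at least 4 Gad UMIs, and these 7 carried 74 of the 117 Sst UMIs, 99 of the 122 Vip UMIs and 53 of the 62 Tac2 UMIs of the subtype. Without them L2/3-Rorb had 0.0772 Sst UMIs per cell, near the 0.0789 of L6-Npy neurons. Of the 230 Vip UMIs in 2802 microglial cells, 162 were in 1 cell. In L5-S100b, 59 of 70 Tac1 UMIs were in 5 of 1096 cells. Among the 2185 unclassed cells with under 4 Gad UMIs and at most 3 of Slc17a7, 23 cells with at least 10 Vip UMIs held 1248 of 1413 Vip UMIs, with a median of 2 Gad UMIs. These 23 were counted among the other cells, so the Vip difference of 6.14 ± 0.12 against other cells was computed with them on the lower side.

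One non-neuronal class stood apart for Npy and Tac1. Oligodendrocyte precursor cells, which carry Pdgfra and divide to give oligodendrocytes, were assigned from Pdgfra, Cspg4, C1ql1 and Gpr17. Their Npy level was 75.4, 61.7 and 72.9 CPM in the unsorted libraries, against at most 7.05 CPM in any library of the other 5 classes. Their Tac1 level was between 59.4 and 61.7 CPM in each library, against at most 7.11 CPM elsewhere, a value reached in oligodendrocytes. The ranges did not overlap for either gene.

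The difference was also present at equal depth. After every cell was thinned to 2000 UMIs, 11.8% ± 1.79 of precursor cells held an Npy UMI and 11.1% ± 1.26 a Tac1 UMI (SD, n = 3). No other class had a mean over libraries above 1.10% for Npy or 0.369% for Tac1. The thinning left out 69 of 1468 precursor cells and 786 of 7826 non-neuronal cells in all. Unthinned, 299 of 1468 precursor cells (20.4%) held Npy, 308 (21.0%) held Tac1 and 71 held both. The counts per cell were low, with at most 9 Npy and 4 Tac1 UMIs in a cell. Sst, in contrast, was at 6.83 ± 1.92 CPM in precursor cells, within the range of the other classes. Npy UMIs outnumbered Sst UMIs 10.2 to 1 in precursor cells but 0.389 to 0.889 to 1 in the 4 other classes with more than 4 Sst UMIs. Tac1 UMIs outnumbered Sst UMIs 8.85 to 1 in precursor cells but at most 1.11 to 1 elsewhere. Precursor cells had 0.219 Gad UMIs per cell. Without them the non-neuronal mean fell from 0.0677 to 0.0174 UMIs per cell for Npy and from 0.0518 to 0.00663 for Tac1.

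**Figure D2:**
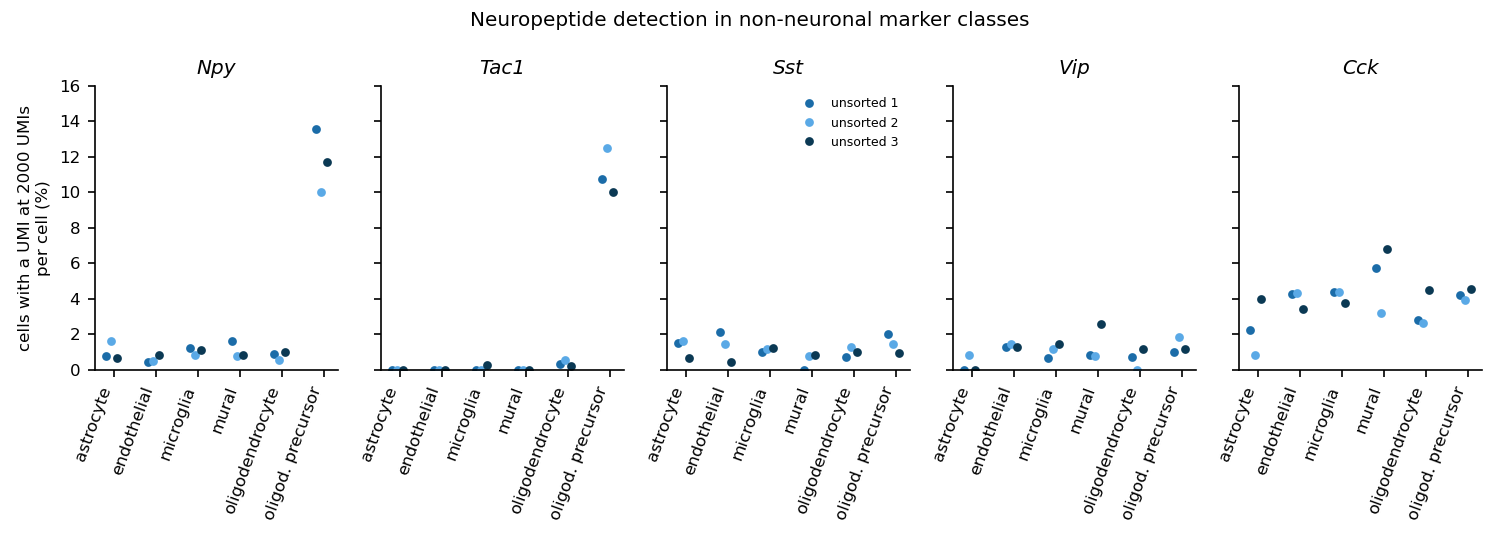
Percent of cells with at least 1 UMI, after thinning to 2000 UMIs per cell, for Npy, Tac1, Sst, Vip and Cck in 6 non-neuronal classes, with 1 point per unsorted library. Npy and Tac1 are raised in oligodendrocyte precursor cells (means 11.8% and 11.1%), whereas Sst, Vip and Cck show like low shares across the classes.

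Within inhibitory cells the peptides split by lineage. Cells with Lhx6 and no Adarb2 UMI (148, 143 and 130 per library) were compared with cells holding Adarb2 and no Lhx6 (272, 289 and 234), a division that uses no peptide. Of the 1278 cells, 13 held both genes and 49 neither. The division went with other lineage genes: Sox6 was at 104 to 135 CPM in Lhx6 cells and 0 to 2.65 in Adarb2 cells, and Prox1 at 0 to 1.14 and 255 to 288.

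Of the 8 members tested, 4 were higher in Lhx6 cells and 4 in Adarb2 cells, with 10.0% of 11515 genes called higher and 11.0% lower. Adcyap1 had too few counts to be tested. Sst was at 8335, 8427 and 10511 CPM in Lhx6 cells and at 5.89, 3.01 and 4.46 in Adarb2 cells, the latter below its non-neuronal mean CPM. Vip was the reverse, at 5065, 6110 and 6120 CPM in Adarb2 cells and at 4.84, 3.05 and 3.68 in Lhx6 cells. Per cell, Sst in Adarb2 cells was at 0.0566 UMIs, 2.16 times the non-neuronal mean. Each of these peptides was thus at a few CPM in the lineage of the other, with log2 differences (Lhx6 over Adarb2) of 10.99 ± 0.07 for Sst and -10.52 ± 0.07 for Vip.

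Cort followed Sst with a log2 difference of 4.71 ± 0.09, from 691, 485 and 734 CPM in Lhx6 cells to 19.4, 25.4 and 27.1 in Adarb2 cells. Tac1 was at 97.9, 190.6 and 89.2 CPM against 1.18, 0 and 0.956 (7.46 ± 0.23). Cck followed Vip, at 155, 133 and 106 CPM in Lhx6 cells and 4554, 4980 and 5249 in Adarb2 cells (-5.22 ± 0.07). Tac2 did so too (-4.81 ± 0.08). Crh was also higher in Adarb2 cells but by less, at 226 to 250 CPM against 46.1 to 76.9 in Lhx6 cells (-1.84 ± 0.09).

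Npy was the member least divided by lineage. It stood at 1721, 2137 and 2478 CPM in Lhx6 cells and at 1163, 1158 and 1367 in Adarb2 cells. The groups did not overlap, yet the log2 difference was 0.77 ± 0.04, and all 8 adjusted p-values of edgeR's quasi-likelihood test were at most 3.97e-14.

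**Figure D3:**
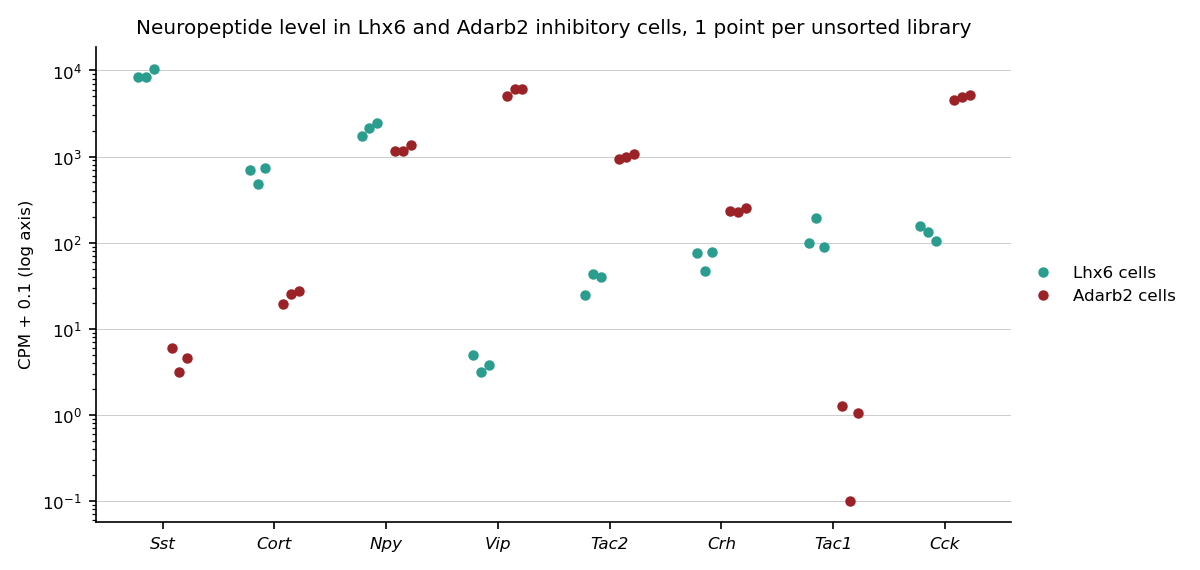
Level of 8 peptide genes in inhibitory cells of the 3 unsorted libraries, as CPM plus 0.1 on a log axis, for cells with Lhx6 and no Adarb2 (green) and cells with Adarb2 and no Lhx6 (red). Each point is a library. Sst, Cort and Tac1 lie higher in Lhx6 cells, Vip, Cck, Tac2 and Crh in Adarb2 cells, and the Npy points of the groups lie closest together.

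The same RNAs were then counted cell by cell. A cell was called positive when its UMIs exceeded the 99th percentile of the non-neuronal cells of its library and were at least 2. The non-neuronal cells included the precursor cells, and the lowest positive count was 3 UMIs for Npy and 2 for every other member. Of the inhibitory cells 47.6% ± 1.09 were positive for Cck, 38.5% ± 2.43 for Vip, 30.9% ± 2.20 for Sst, 28.7% ± 0.379 for Tac2, 28.7% ± 0.568 for Npy, 21.2% to 23.0% per library for Crh, 19.6% ± 0.227 for Cort and 4.76% ± 0.952 for Tac1 (SD, n = 3 libraries). One of 1278 cells was positive for Adcyap1. In Lhx6 cells 85.1% ± 2.59 were Sst-positive and 0 of 421 Vip-positive, which allows a share of up to 0.713%. In Adarb2 cells 61.0% ± 3.81 were Vip-positive and 3 of 795 Sst-positive.

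Most inhibitory cells carried several of these RNAs. Of 1278 cells, 43 were positive for no member, 382 for 1, 337 for 2, 330 for 3, 156 for 4, 29 for 5 and 1 for 6, so that 66.7% were positive for at least 2. The shares of pairs are given with no test, and cells of greater depth are more readily positive for each member. Sst and Vip were nearly exclusive: 3 of 394 Sst-positive cells (0.761%) were Vip-positive, whereas 38.4% of all inhibitory cells were. Of the same 394 cells, 52.3% were Npy-positive and 42.4% Cort-positive. Of 251 Cort-positive cells, 68.5% were Npy-positive and 66.5% Sst-positive.

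The Vip cells formed another set. Of the 281 Crh-positive cells, 79.0% were Vip-positive, and of the 367 Tac2-positive cells, 75.7% were Vip-positive and 73.3% Cck-positive. Of the 491 Vip-positive cells, 56.6% were Tac2-positive and 45.2% Crh-positive. Cck did not mark this set, since 51.7% of Vip-positive cells were Cck-positive, near the 47.7% of all inhibitory cells. Tac1 marked a smaller group. Of 61 Tac1-positive cells, 16.4% were Sst-positive, 60.7% Cort-positive and 83.6% Cck-positive.

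**Figure D4:**
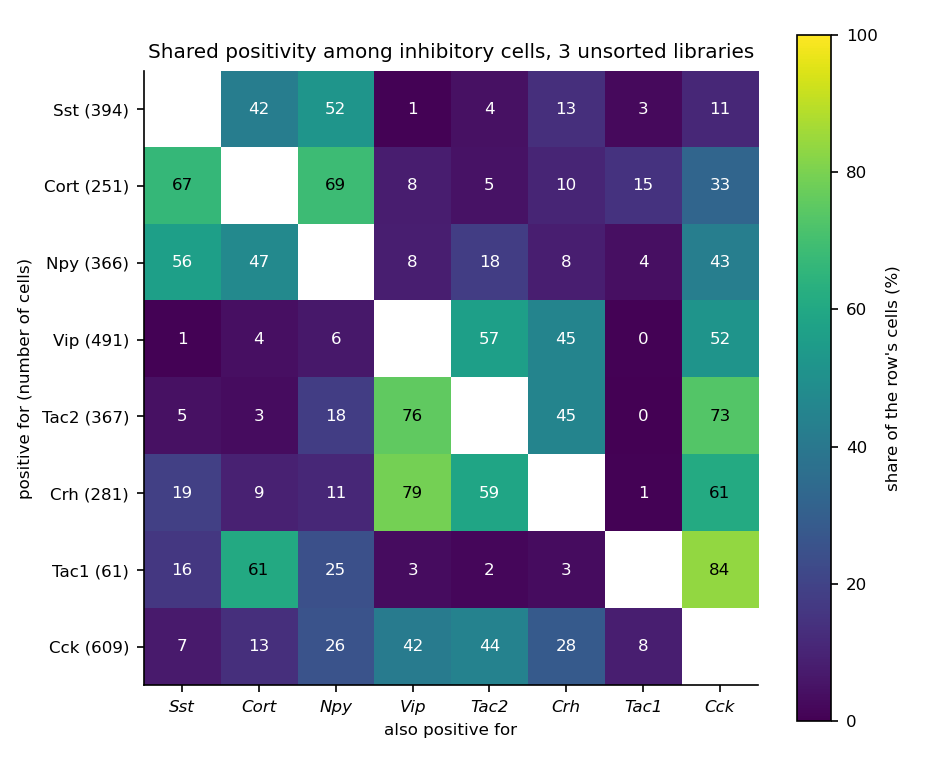
Heat map of shared positivity in the 1278 inhibitory cells of the unsorted libraries, in which each cell gives the percent of cells positive for the row gene that were also positive for the column gene. High shares join Sst, Cort and Npy on one side (52.3% of Sst-positive cells were Npy-positive). They join Vip, Tac2 and Crh on the other (79.0% of Crh-positive cells were Vip-positive). Cck positivity was high in Tac2-positive (73.3%) and Tac1-positive cells (83.6%). In Vip-positive cells it was 51.7%, near the 47.7% of all inhibitory cells.

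The genes most like each member were sought by Pearson correlation over the 1278 inhibitory cells among 11176 genes, after centring within each library. These values describe cells that share 3 libraries and differ in depth. Sst was most like Lypd6 (r = 0.88), Satb1 (0.83) and Gda (0.82). Cort was most like Lgals1 (0.66), Crhbp (0.59), which encodes a binding protein of corticotropin-releasing hormone, and Rbp4 (0.54). Npy was most like Cort (0.52), followed by Crhbp (0.49) and Sv2c (0.48). Vip was most like Gpd1 (0.71), Ap1s2 (0.69) and Ptprd (0.67), Tac2 like Adra1b (0.62), Cbln2 (0.60) and Cxcl14 (0.56), and Crh like Vip (0.51), Tac2 (0.44) and Synpr (0.44). Tac1 was most like Tcap (0.64), Pvalb (0.63), the parvalbumin gene of fast-spiking interneurons, and Slit2 (0.63). Cck was most like Shisa9 (0.63), the cannabinoid receptor gene Cnr1 (0.61) and Cxcl14 (0.60). Members were thus among the leading genes for Npy and Crh, and not for the other 6.

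Other peptides and the peptide machinery were read from lists. Of 13 other cortical neuropeptide genes, 10 could be tested against excitatory neurons: 6 were higher in inhibitory cells, 3 lower and 1 was not called (median log2 difference 2.01, against -0.01 for all genes). Pnoc (8.56), Pthlh (7.01) and Cartpt (5.95) led the higher ones and Grp (-6.74), Trh (-3.16) and Nts (-2.13) the lower ones. Of 15 genes for peptide processing and dense-core vesicles, 4 were higher, 6 lower and 5 not called, with a median of -0.05. Among these, the amidating enzyme gene Pam was higher by 1.83 and the prohormone convertase genes Pcsk5 and Pcsk2 were lower, at -2.23 and -1.88. Against all other cells the same 15 gave 10 higher, 1 lower and 4 not called (median 1.59), with Vgf (3.55), Cadps2 (3.45) and Scg2 (3.23) leading. The other neuropeptides gave 6 higher, 2 lower and 2 not called there.

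Between the lineages, 3 of 7 other neuropeptides were higher in Lhx6 cells, namely Pdyn (8.71), Cartpt (4.49) and Nppc (2.44), and 4 were lower, led by Pnoc (-3.17), Pthlh (-3.02) and Penk (-2.96). Of the 15 processing genes, 3 were higher and 4 lower. Cadps2, which serves dense-core vesicle release, was lower in Lhx6 cells by a log2 difference of -5.24 and Pcsk1 by -1.26. Of the 14 listed Lhx6-lineage genes 12 were higher, with Maf (-0.86) and Kcnip1 (-0.77) lower, and of the 14 Adarb2-lineage genes 13 were lower, with Reln (0.59) higher. The lists include Lhx6, Adarb2, Sst, Tac1 and Vip themselves.

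Among excitatory neurons, Cck spanned a wide range of levels. Its level was 3577 to 3931 CPM in L6-Npy and 3143 to 3275 CPM in L2/3-Rorb over the 3 unsorted libraries. It was 2606 to 2804 CPM in L5-S100b and 2603 to 2770 in L2/3-Calb1, ranges that overlapped each other and that of inhibitory cells. L5-Bcl6 followed at 671 to 749 CPM and L6-Syt6 at a mean of 93.8 CPM. L5-Htr2c was at 8.15 to 50.9 CPM, with 58 of its 107 Cck UMIs in 1 of 317 cells. The order L6-Npy, L2/3-Rorb, L5-Bcl6, L6-Syt6 thus held without overlap, and no test is given since the subtypes were built from these counts. In L6-Npy all 837 cells held at least 5 Cck UMIs, while in L6-Syt6 13.3% of 4319 cells did.

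Adcyap1 was highest in a pair of subtypes. It stood at 53.8, 42.0 and 59.8 CPM in L2/3-Rorb and at 45.3, 53.6 and 40.1 CPM in L5-Bcl6, which overlapped. L5-S100b had 21.0, 21.8 and 25.9 CPM, and L6-Npy 9.99, 7.57 and 7.87 CPM. L2/3-Calb1, L6-Syt6 and L5-Htr2c stayed at or below 6.39 CPM in each unsorted library. At least 1 Adcyap1 UMI was found in 61.5% ± 4.63 of L2/3-Rorb, 49.6% ± 5.71 of L5-Bcl6 and 25.5% ± 2.04 of L5-S100b cells, which after thinning to 2000 UMIs became 11.7%, 9.81% and 3.93%. L2/3-Rorb and L2/3-Calb1, both named for layers 2/3, thus lay apart for Adcyap1 but not far apart for Cck.

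Npy in excitatory neurons was the peptide of L6-Npy, a subtype named for it. Its level there was 217, 219 and 279 CPM, whereas no other subtype exceeded 6.92 CPM in any unsorted library. The subtype was mixed: 391 of 837 cells (46.7% ± 2.55) held no Npy UMI, 188 (22.4% ± 2.54) held 1 to 4 and 258 (30.9% ± 1.85) held at least 5, with a maximum of 64. Cells with at least 5 had 0.0504 Gad UMIs each and those with none had 0.0409, and no cell of either kind reached 4 Gad UMIs. Their Sst UMIs were also alike, at 0.0775 and 0.0818 per cell. L5-S100b held 20 further cells with at least 2 Npy UMIs among 1096.

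Cort was seen outside inhibitory cells in L5-Bcl6, at 5.83, 10.2 and 10.8 CPM, while the other 6 subtypes stayed at or below 1.16 CPM. The 315 L5-Bcl6 cells held 65 Cort UMIs, none of them had 4 Gad UMIs, and 13 held at least 2 Cort UMIs. Sst in the same subtype was at 4.24 CPM on average, like the other subtypes. In the sorted library Cort was at 2.45 CPM in 67 L5-Bcl6 cells, below each unsorted library, and the unsorted mean was 3.65 times higher. Tac2, Crh and Tac1 had no subtype above 7.43 CPM.

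Cck and Npy were lower in the sorted library too, as were the Sst and Vip traces and Cort of L5-Bcl6 already described. In each of the 6 subtypes with enough sorted cells, its Cck level lay below every unsorted library, at 1220 CPM in L6-Npy, 1123 in L2/3-Rorb, 1050 in L5-S100b, 981 in L2/3-Calb1, 271 in L5-Bcl6 and 45.3 in L6-Syt6. The unsorted mean was 2.07 to 3.11 times higher. Npy in L6-Npy was at 133 CPM, 1.79 times below the unsorted mean. Adcyap1 lay above the unsorted range in 3 of these subtypes, within it in 1 and below it in 2. The sort, the pooled mice and the library cannot be told apart, as there was 1 sorted library.

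Whether the peptides went with retrograde labelling was asked within subtypes, by comparing cells with at least 5 UMIs of the viral barcode feature (barcode-high) with cells that had none (barcode-zero) in the same library. The comparison used 1 barcode feature and did not part the targets. The paper reports many zero barcode counts in these libraries, so a barcode-zero cell may still have been labelled. In the sorted library the barcode-zero cells had also been sorted to enrich for EGFP. L2/3-Rorb, L5-S100b, L6-Npy and L6-Syt6 had at least 10 cells on each side in all 4 libraries, and the other 3 subtypes were not tested. Barcode-high cells were also deeper, for instance in L5-S100b with a median of 25554 UMIs against 19307 in unsorted 1, and the part of depth in these differences was not tested.

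In L5-S100b, 3 of 5 members tested were called lower in barcode-high cells, while 2.70% of 11477 genes were called in either direction. Adcyap1 was at 15.1, 19.6, 19.5 and 17.1 CPM in barcode-high cells and 37.0, 34.6, 53.2 and 37.5 in barcode-zero cells of unsorted 1, 2, 3 and sorted. The groups did not overlap, and the log2 difference was -1.17 ± 0.15 (adjusted p = 2.23e-06 by edgeR's quasi-likelihood test, lower in 4 of 4 libraries). It kept its direction and its call under every alternative run. Npy (-1.23 ± 0.37) and Vip (-1.47 ± 0.44) passed with adjusted p-values of 0.0434 and 0.0406 in edgeR's quasi-likelihood test, but on 32 and 30 UMIs in all barcode-zero cells. For Npy 21 of the 32 came from unsorted 1, without which the difference was -0.41 and not called, and for Vip 25 of the 30 came from unsorted 3. Npy was lower in barcode-high cells in 3 libraries and higher in unsorted 3 (ratio 1.54). Vip was higher in unsorted 1 (1.09) and unsorted 2 (1.38), lower in unsorted 3 (0.158) and absent from both sides of the sorted library. In the unsorted libraries 1 L5-S100b cell held 20 of the 107 Vip UMIs of the subtype. DESeq2 called neither. Cck did not pass in L5-S100b (0.08, 95% interval -0.01 to 0.17).

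In L6-Syt6, 3 of 5 members tested were called, against 1.67% of 13030 genes. Cck was higher in barcode-high cells, at 124, 136, 141 and 47.5 CPM against 75.5, 69.3, 70.7 and 41.6, a log2 difference of 0.85 ± 0.09 (adjusted p = 0.00155 by edgeR's quasi-likelihood test, higher in 4 of 4 libraries). The ratio was 1.65, 1.97 and 1.99 for unsorted 1, 2 and 3 and 1.14 for the sorted library. The call was lost without unsorted 2 (0.77, adjusted p = 0.0591 by edgeR's quasi-likelihood test) and without the block by library. Adcyap1 was lower (-1.10 ± 0.23, adjusted p = 0.0251 in the same edgeR test), in 4 of 4 libraries, at 1.69, 1.23, 1.53 and 0.833 CPM against 2.40, 3.68, 3.57 and 2.23. Sst was lower as well (-0.78 ± 0.20, adjusted p = 0.0446 in the same edgeR test), at levels of 0.178 to 8.29 CPM over both sides, beside the 6.42 ± 0.44 CPM of non-neuronal cells. The 8.29 CPM were those of barcode-zero cells of unsorted 3, where 1 cell with at least 4 Gad UMIs held 68 of 137 Sst UMIs. The difference without that cell was not computed. Leaving out any 1 unsorted library ended the calls of Adcyap1 and Sst.

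In L6-Npy, 0 of 3 members tested passed both limits, with 0.801% of 10365 genes called. Npy was lower in barcode-high cells in 4 of 4 libraries, at 207, 198, 236 and 105 CPM against 280, 279, 297 and 156, and the log2 difference of -0.44 ± 0.06 was smaller than the limit of 0.5 (adjusted p = 1.53e-05 by edgeR's quasi-likelihood test). Cck was higher by 0.12 ± 0.03 (adjusted p = 0.0372 in the same edgeR test). At an unadjusted p under 0.05, 2 of the 3 members stood out, and DESeq2 called 0. In L2/3-Rorb, 0 of 2 members passed in edgeR, 0 at an unadjusted p under 0.05 and 0 in DESeq2, with 0.139% of 10038 genes called. There the log2 difference of Adcyap1 was 0.27 (95% interval -0.02 to 0.56) and that of Cck -0.06 (-0.14 to 0.02). Whether Adcyap1 differed between L5-S100b and L2/3-Rorb in this response was not tested.

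**Figure D5:**
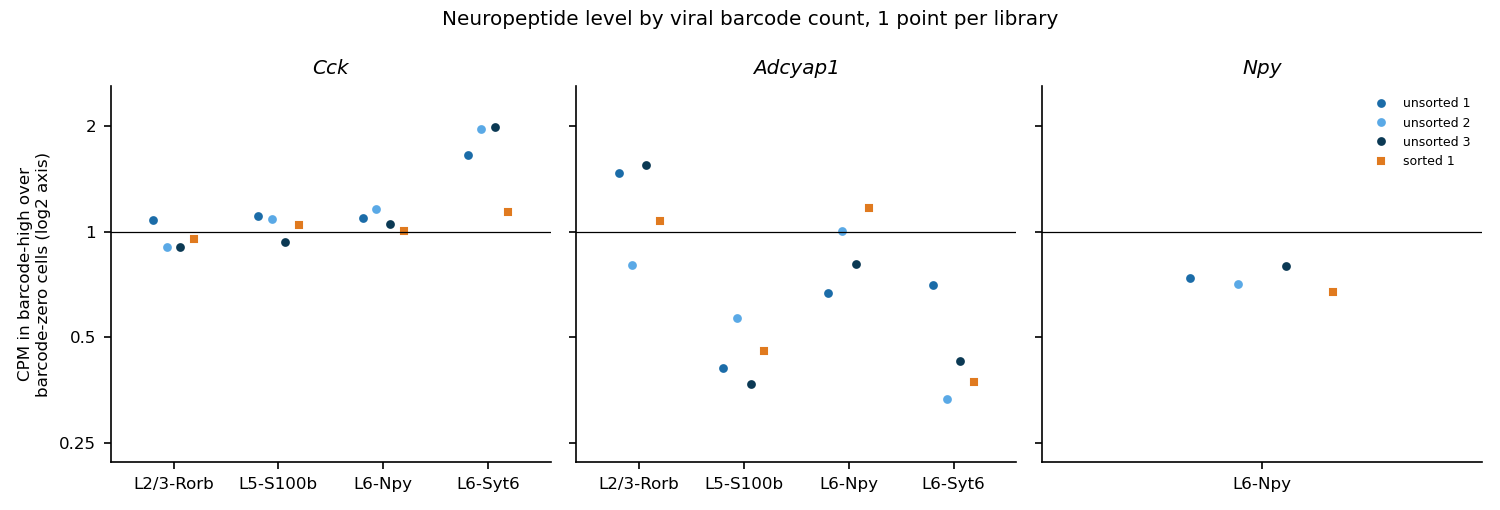
Ratio of the level in barcode-high cells to that in barcode-zero cells (CPM over CPM, log axis, 1 marks no difference) for Cck and Adcyap1 in 4 subtypes and for Npy in L6-Npy, with 1 point per library. Adcyap1 lies below 1 in all 4 libraries in L5-S100b (0.368 to 0.567) and in L6-Syt6, and Cck lies above 1 in all 4 in L6-Syt6 (1.14 to 1.99).

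Beside the members, some listed genes were called by barcode. Grp, encoding gastrin-releasing peptide, was lower in barcode-high L2/3-Rorb cells (-0.85) and higher in barcode-high L5-S100b cells (0.62). In L5-S100b the processing genes Cadps2 (0.65) and Scg3 (0.54) were higher and Pam (-0.55) was lower, and 12 of 15 were not called. Vgf was higher in L2/3-Rorb (0.52) and L6-Npy (0.56), where Scg2 was higher too (0.61). In L6-Syt6 Nts was lower (-1.53) and Pcsk5 lower (-0.62). Of the lineage lists, Nos1 was higher in barcode-high L6-Syt6 (1.11) and L5-S100b cells (0.55), Grin3a was lower in L5-S100b (-0.85) and L6-Npy (-0.58), and Nxph1 (-1.40) and Lamp5 (-1.46) were lower in L6-Syt6.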

How the data were processed

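Raw UMI counts per gene and cell (10x 3′ chemistry, Cell Ranger 3.0.2 per the file headers, mm10 and Seurat 3.1.4 per the labels) were used as deposited, with the authors' metadata giving the excitatory subtypes. Cells kept had 500 to 8000 genes, 1000 to 60000 UMIs and under 20% mitochondrial counts. The upper limits on genes and UMIs are those the authors set against potential doublets, and no doublet caller was run here. For each library, the counts of a group of cells were added up and compared in edgeR 4.0.16 (R 4.3.3; TMM, filterByExpr, quasi-likelihood, library as block), called at adjusted p under 0.05 and an absolute log2 difference of at least 0.5. DESeq2 1.42.0 was an alternative. Non-neuronal cells held at least 4 marker UMIs of exactly 1 class. The 95% intervals of log2 differences come from the edgeR fits and include the spread between libraries, and the limit given for a count of 0 covers counting error only. Each unsorted library is 1 mouse. The blocked pairing comes from both sides of each comparison being cells of the same library. The members and lists were chosen with earlier results of these data known. Named genes were all 9 members, up to 3 called genes per list and direction, and the 3 genes most like each member. Scripts were tested on simulated data.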

Additional observations from a re-analysis of the deposited data

How the results depend on the processing

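The calls of the members between inhibitory and excitatory neurons, inhibitory and other cells, and Lhx6 and Adarb2 cells kept their direction and their side of the threshold under every alternative run (another test, no filter on low counts, no replicate block, leaving out each library, stricter cell limits, all cell barcodes), except that Adcyap1 could not be tested against non-neuronal classes alone, leaving 8 of 9. For Lhx6 against Adarb2, DESeq2 called 1458 genes in place of 2423. The barcode comparisons depended more on the setting, and the cause was not tested. Without the replicate block, which pairs both sides of a library, members called fell from 3 to 1 in L5-S100b and from 3 to 0 in L6-Syt6, and genes called from 310 to 56 in L5-S100b, from 218 to 75 in L6-Syt6, from 83 to 0 in L6-Npy and from 14 to 0 in L2/3-Rorb. With the block left out the adjusted p of Cck in L6-Syt6 was 0.340 in edgeR's quasi-likelihood test. DESeq2 called 1 member in L5-S100b and 1 in L6-Syt6, together with 0 genes in L2/3-Rorb, 11 in L6-Npy and 145 in L5-S100b. With 1 or more barcode UMIs in place of 5, members called were 1 in L5-S100b and 1 in L6-Syt6, and genes called 6 in L2/3-Rorb, 27 in L6-Syt6, 31 in L6-Npy and 202 in L5-S100b. Without the filter on low counts L2/3-Rorb gave 1 member and 28 genes. Leaving out each library in turn gave 0 to 3 members and 28 to 309 genes in L6-Syt6 (28 without unsorted 2), 2 to 3 members and 178 to 289 genes in L5-S100b, 45 to 75 genes in L6-Npy and 2 to 33 in L2/3-Rorb (2 without unsorted 1). The share of inhibitory cells positive for at least 2 members was 64.0% at the stricter percentile tried and 57.7% at 5 or more UMIs, against 66.7%. Leaving out cells with Gad UMIs, precursor cells or the microglial cell was chosen after seeing the data. Counts were low for Adcyap1 in inhibitory cells, with 5 UMIs in 1278 cells, and for Sst and Vip in excitatory neurons. The part of depth in these low counts was not tested.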
